A study of Mus musculus with 3 samples.

Results

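The genes described here are noncoding genes that lie opposite the exons of protein-coding genes. A gene was included when GENCODE gives it 1 of 5 types (antisense, lincRNA, processed_transcript, bidirectional_promoter_lncRNA or TEC) and its exons share at least 100 bases with exons of a protein_coding gene on the other strand. Of 50600 genes counted, 1814 met this rule: 1192 antisense, 216 processed_transcript, 209 TEC, 167 lincRNA and 30 bidirectional_promoter_lncRNA genes. The type TEC marks gene models that still await experimental testing, and lincRNA a long noncoding RNA annotated between coding genes. Each was paired with the coding gene with which it shares the most exon bases, called its facing gene below.

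RNA was sequenced from T-helper 1 (Th1) cells, the CD4 T cells that make interferon gamma, as primary cells of mouse strain C57BL/6NJ. The single group held 3 libraries, numbered as biological replicates and tied to 1 donor record, with sex not collected and age unknown. Headers in the files call the cells sorted and place them at 72 hours. No other genotype, treatment or cell type was compared, so every comparison below is between genes within a library or between the libraries.

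Many mammalian loci are transcribed from both strands, and RNA copied from the strand opposite a coding gene is called natural antisense RNA. Some antisense RNAs are known to act on the gene they face, as Tsix acts on Xist in X inactivation, while most have no known role. Where exons overlap, reads are assigned to a gene by strand alone, so the strand of the library and the strand setting of the counter decide which of the facing genes receives a fragment. The headers give strand setting 1, which assigns a fragment to the gene on the strand of its first read. Which strand the library chemistry keeps is not given in the sources used here. Whether a fragment counted for a noncoding gene came from that gene or from RNA of the facing gene can therefore not be told apart from these counts, and this holds for every level and ratio below.

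The exons of the noncoding genes held 1589.5 bases in the median, and the median overlap with the facing gene's exons was 335 bases. Taken gene by gene, the median share of exon bases that face was 25.3%. In 94 genes every exon base faced the coding gene. The overlap ran across an exon-intron boundary of the facing gene in 1304 of the 1814 (71.9%), and 341 were single-exon genes. A total of 1704 faced 1 coding gene by 100 bases or more and 110 faced several. Distinct facing genes numbered 1708, which is 7.85% of 21764 coding genes, and 101 of them were faced by more than 1 noncoding gene.

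The following stretches show what such an overlap looks like in 8 of the highest genes whose exons run from a coding exon of the facing gene into its intron. Each is 60 bases on the strand of the noncoding gene, read from GENCODE release 21 transcripts on GRCm38/mm10, 5′ to 3′. Capitals mark bases opposite coding sequence of the facing gene and lower case its intron. The first is Gm17638 opposite Eif3d (chr15:77961714-77961773, plus strand), followed by Gm26762 opposite Gpi1 (chr7:34227088-34227147, plus), Gm10252 opposite Ftl1 (chr7:45459500-45459559, plus) and Gm26582 opposite G3bp2 (chr5:92055024-92055083, plus). On the minus strand are Gm26518 opposite Pcbp2 (chr15:102483259-102483318), Gm12992 opposite Srsf4 (chr4:131900235-131900294), Gm26885 opposite Pim1 (chr17:29491490-29491549) and Gm15884 opposite Phb2 (chr6:124715924-124715983).
Gm17638: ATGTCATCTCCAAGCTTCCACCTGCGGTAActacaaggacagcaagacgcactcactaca
Gm26762: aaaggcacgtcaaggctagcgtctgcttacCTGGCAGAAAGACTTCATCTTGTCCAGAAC
Gm10252: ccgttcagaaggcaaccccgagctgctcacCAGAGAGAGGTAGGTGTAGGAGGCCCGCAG
Gm26582: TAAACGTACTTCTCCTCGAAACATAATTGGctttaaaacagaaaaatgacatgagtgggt
Gm26518: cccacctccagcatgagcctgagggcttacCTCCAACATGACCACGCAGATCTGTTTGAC
Gm12992: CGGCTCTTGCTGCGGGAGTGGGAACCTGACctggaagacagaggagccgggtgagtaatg
Gm26885: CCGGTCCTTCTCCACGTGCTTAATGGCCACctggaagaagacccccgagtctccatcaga
Gm15884: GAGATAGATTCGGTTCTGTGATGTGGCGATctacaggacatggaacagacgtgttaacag
Where the lower case meets the capitals, the noncoding strand reads ac or ct. These are the reverse complements of gt and ag, the bases at the start and end of the facing gene's intron. The noncoding exons thus continue through bases that splicing removes from the facing mRNA.

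The libraries differed in depth and in how much fell on these genes. Replicates 1, 2 and 3 held 4482916, 266790 and 3733531 counts, so that 3 counts stood for 0.669, 11.2 and 0.804 CPM (counts scaled to library totals of 1000000). Replicate 2 is therefore the least precise, and replicate 3 stood apart in the share held by the noncoding genes, given below. Of markers fixed for cell types, 9 of 9 Th1 and 8 of 8 T-cell genes reached a mean of 1 TPM (counts per exon length, scaled to a fixed sum per library). So did 4 of 8 Th2 and Th17 markers and 7 of 21 markers of other cell types, while 10 of the 21 were at 0 counts. The highest of the 21 was the macrophage marker Csf1r, at a mean of 111.1 TPM. Foxp3, the marker of regulatory T cells, had a mean of 64.85 TPM, and the CD8 genes Cd8b1 and Cd8a 2.28 and 0. Csf1r and Foxp3 have exon bases opposite another gene. Genes of the sex chromosomes also differed between the libraries: Xist had 1174, 140 and 11 counts, and Ddx3y of the Y chromosome 112, 0 and 94. P-values below measure only the spread between these 3 libraries, which may be partly technical.

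The noncoding genes facing coding exons held a large share of the data. They took 13.5% of the counts in replicate 1 (95% exact binomial interval 13.5% to 13.6%), 14.5% in replicate 2 (14.4% to 14.7%) and 22.1% in replicate 3 (22.1% to 22.2%), a mean of 16.7% ± 4.70 (SD, n = 3). Scaled by exon length, as TPM, their share was 26.0%, 27.5% and 36.9%, a mean of 30.1%. The intervals cover counting error only, since copies made by PCR are not independent molecules. The 1708 facing genes together held 6.53%, 6.44% and 5.64%, a mean of 6.20% ± 0.487 (SD, n = 3). In each library the noncoding genes thus held more counts than the coding genes opposite them, by 2.07-, 2.26- and 3.92-fold. Genes of the same 5 types with no exon base opposite any gene held only 0.542%, 0.599% and 0.640%.

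The share of genes detected differed likewise. At least 10 counts over the 3 libraries were found for 1134 of the 1814 genes (62.5%), against a background of 26.9% over all genes. Among 7939 genes of the same types with no opposite exon it was 457 (5.76%), and among 918 with a smaller overlap, or one with a gene that is not coding, it was 280 (30.5%). The facing genes reached it in 1109 of 1708 cases (64.9%), close to the noncoding genes opposite them, while coding genes with no opposite exon reached it in 7546 of 16963 (44.5%). The gap between noncoding genes with and without a facing exon was present in each type, from 60.5% against 11.0% in antisense genes to 67.7% against 3.84% in lincRNA genes. The median was 62 counts over the 3 libraries for genes with a facing coding exon and 0 for those with no opposite exon. Still, 430 of the 1814 had 0 counts, which allows up to 3 counts over the group, and 344 had 1000 or more.

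**Figure D1:**
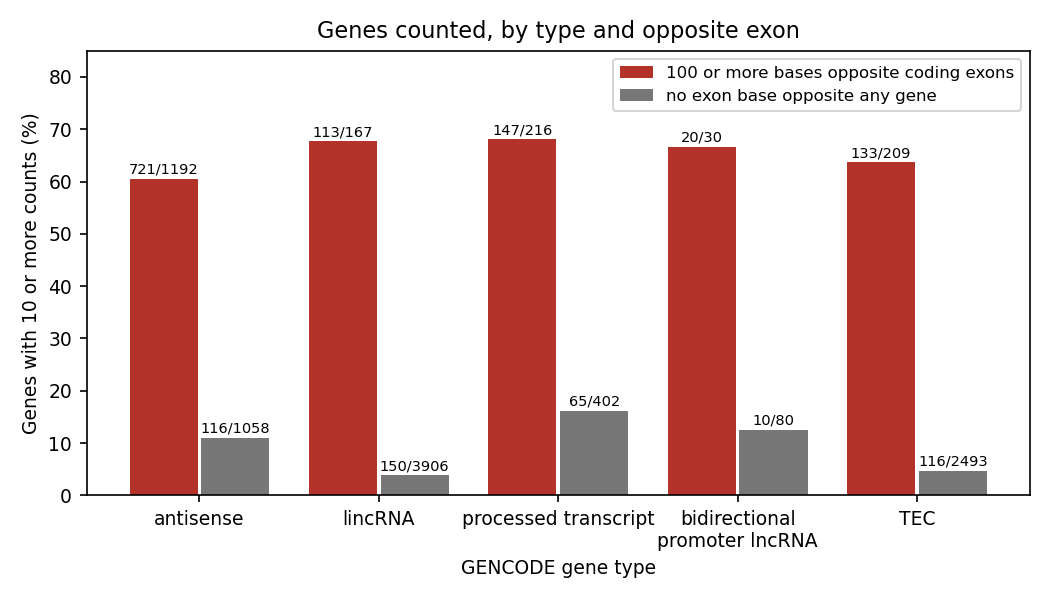
Share of noncoding genes with 10 or more counts summed over 3 libraries (y axis, %) by GENCODE type (x axis), for genes sharing 100 or more bases with opposite coding exons and for genes with no opposite exon base, with the numbers of genes above the bars. In each of the 5 types the first bar is above 60% and the second at 16.2% or below.

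Counts were concentrated in few genes. The 84 highest held as much as all the others, the first 10 held 15.7% of the counts of all 1814 and the first 30 held 30.4%. All 30 had at least 8397 counts, and 20 of them are antisense genes. Ranked by mean TPM in place of counts, 12 of these 30 stayed among the first 30, since TPM favours short genes. The facing genes of the 30 belong to many housekeeping processes and to several known in activated T cells, described next by function.

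Each noncoding gene was compared with its facing gene within each library, per exon base, by edgeR's quasi-likelihood test, with Benjamini-Hochberg adjustment over all 1743 pairs of a noncoding and a coding gene that had 10 or more counts between them. All adjusted p-values of pairs below come from this test. Log2 ratios of single pairs are given per exon base as the mean over libraries ± SD (n = 3). The first 30 were picked for their high counts, so their ratios describe them and show nothing about the remaining genes. In all 30 the noncoding gene was higher by the test. Picking genes by their own high counts favours that outcome, so it is a description and no support.

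Several genes of the top ranks faced genes of translation and RNA handling. Gm17638 (chromosome 15, 77961674 to 77967126, plus strand) had 11465, 684 and 15311 counts, and Eif3d, which encodes a subunit of translation initiation factor 3, had 1524, 62 and 943. The ratio was a log2 of 2.28 ± 0.55, the lowest of the top 10. For Gm26582, opposite 2050 exon bases of the stress granule gene G3bp2, the counts were 6992, 549 and 8697 against 610, 55 and 305. Its log2 ratio was 5.35 ± 0.83, and no library of G3bp2 came near its counts. Gm26518 shares only 129 bases with Pcbp2, a poly(C)-binding protein gene, and had 5707, 354 and 8030 counts against 1357, 110 and 793. Gm12992 faces the splicing factor gene Srsf4 by 1532 bases and had 5592, 263 and 6932 counts against 1113, 28 and 656. These overlaps differ more than 10-fold in length, while the log2 ratios of 2.18 ± 0.87 and 2.26 ± 0.57 lie within each other's spread. Gm17134 faces Ptbp1, a repressor of exon inclusion, with 4160, 296 and 6102 counts against 1451, 64 and 825. It is a short gene of chromosome 10 (79863937 to 79864434, minus strand), so its log2 ratio per base was 5.64 ± 0.68. Also in the top 30 are 2610020C07Rik opposite Gspt1, the translation termination factor eRF3a, and Gm9828 opposite Btf3, a subunit of the nascent polypeptide-associated complex. Gm9828 had the lowest log2 ratio of the 30, 1.54 ± 0.61.

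Genes known in T-cell activation were among those faced. Gm16008, among the highest of all, faces 414 exon bases of Tnfrsf18, which encodes GITR, a costimulatory receptor of activated T cells (chromosome 4, 156022008 to 156031643, minus strand). It had 12067, 695 and 15599 counts against 967, 40 and 576 for Tnfrsf18, with a log2 ratio of 4.37 ± 0.56. Gm17041 faces Cish, a cytokine-induced suppressor of receptor signalling, and had 5399, 277 and 7246 counts against 799, 39 and 413. Its log2 ratio of 6.98 ± 0.78 was the second highest of the top 30. Gm26885 faces the kinase gene Pim1, a target of cytokine signalling, with 4588, 247 and 7170 counts against 913, 57 and 543. 0610040F04Rik faces Bhlhe40, a transcription factor needed for cytokine production by T helper cells, by 118 bases. It had 3458, 117 and 4822 counts against 2132, 164 and 1168, so in replicate 2 it was below Bhlhe40 in counts, though not per exon base.

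Most further pairs of this kind lie outside the top 30. Gm48719 faces 135 bases of Cd3e, a chain of the T-cell receptor complex, with 1461, 79 and 1802 counts against 292, 1 and 157. Gm44876 faces the interleukin 4 receptor gene Il4ra, with 609, 64 and 854 counts against 716, 39 and 388. Per exon base both noncoding genes were higher, with log2 ratios of 7.35 ± 1.73 and 3.70 ± 0.70. The large SD of the Gm48719 ratio goes with the single Cd3e count in replicate 2. R74862, which shares 104 bases with Cd81, had 804, 25 and 1027 counts against 301, 17 and 185, and did not pass the test (adjusted p 0.0983 by edgeR). Among transcription factors, Gm11175, itself in the top 30, faces Jund, a component of AP-1, over 877 bases and had 10332, 344 and 11846 counts against 773, 42 and 440. Gm43352 faces Lef1, a factor of T-cell development, with 898, 63 and 1274 counts against 395, 17 and 291. Gm26577 faces the proto-oncogene Myb, with 754, 28 and 1038 counts against 222, 1 and 122. In these 3 pairs the noncoding gene passed the test in the same direction.

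Antigen processing, oxygen sensing and metabolism supplied further facing genes of the top 30. Gm20496 lies between immune genes of the major histocompatibility region (chromosome 17, 34199316 to 34205449, minus strand) and faces Psmb8, a catalytic subunit of the immunoproteasome, by 186 bases and the peptide transporter gene Tap2 by 165. It had 10533, 558 and 13034 counts, Psmb8 1159, 49 and 621, and Tap2 402, 9 and 270. Gm20496 was thus above both coding genes in each library. Gm15283 faces Hif1a, the oxygen-regulated transcription factor, with 6153, 519 and 9393 counts against 2524, 141 and 1320. Gm26762 faces Gpi1, the glycolytic enzyme glucose-6-phosphate isomerase, with 8212, 486 and 10717 against 1890, 105 and 929. Gm10252 faces the ferritin light chain gene Ftl1, with 7717, 533 and 9364 against 572, 19 and 279. Counts of Ftl1 are uncertain, because near-identical copies of it can share its reads. Among mitochondrial genes, Gm26631 faces Cox5a of the respiratory chain, Gm16755 the mitochondrial ribosome gene Mrpl12, Gm12999 the ATP synthase inhibitor gene Atpif1 and Gm15884 the prohibitin gene Phb2. Their log2 ratios were 4.42 ± 0.74, 4.10 ± 0.80, 4.68 ± 1.11 and 5.29 ± 0.65, so in each of the 4 equal levels lay more than 3 SD away. Gm44170 faces Sec61a1, the channel through which proteins enter the endoplasmic reticulum, with a log2 ratio of 6.79 ± 0.90.

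The remaining genes of the top 30 face Fen1 (flap endonuclease of DNA replication), Mob3a, Nub1, the purine synthesis gene Gart, Zfp106, the tropomyosin gene Tpm4, the kinase gene Gsk3a and Zc3h10. Their log2 ratios to the facing gene ran from 1.89 ± 0.81 for Gm26586 opposite Tpm4 to 8.42 ± 1.93 for Gm29585 opposite Zc3h10. That last value depends on the choice of facing gene. Gm29585 had 3374, 235 and 4880 counts and shares 508 bases with Zc3h10, which had 101, 0 and 52, and 421 bases with Esyt1, which had 1194, 65 and 598. The plot of these pairs shows them library by library.

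**Figure D2:**
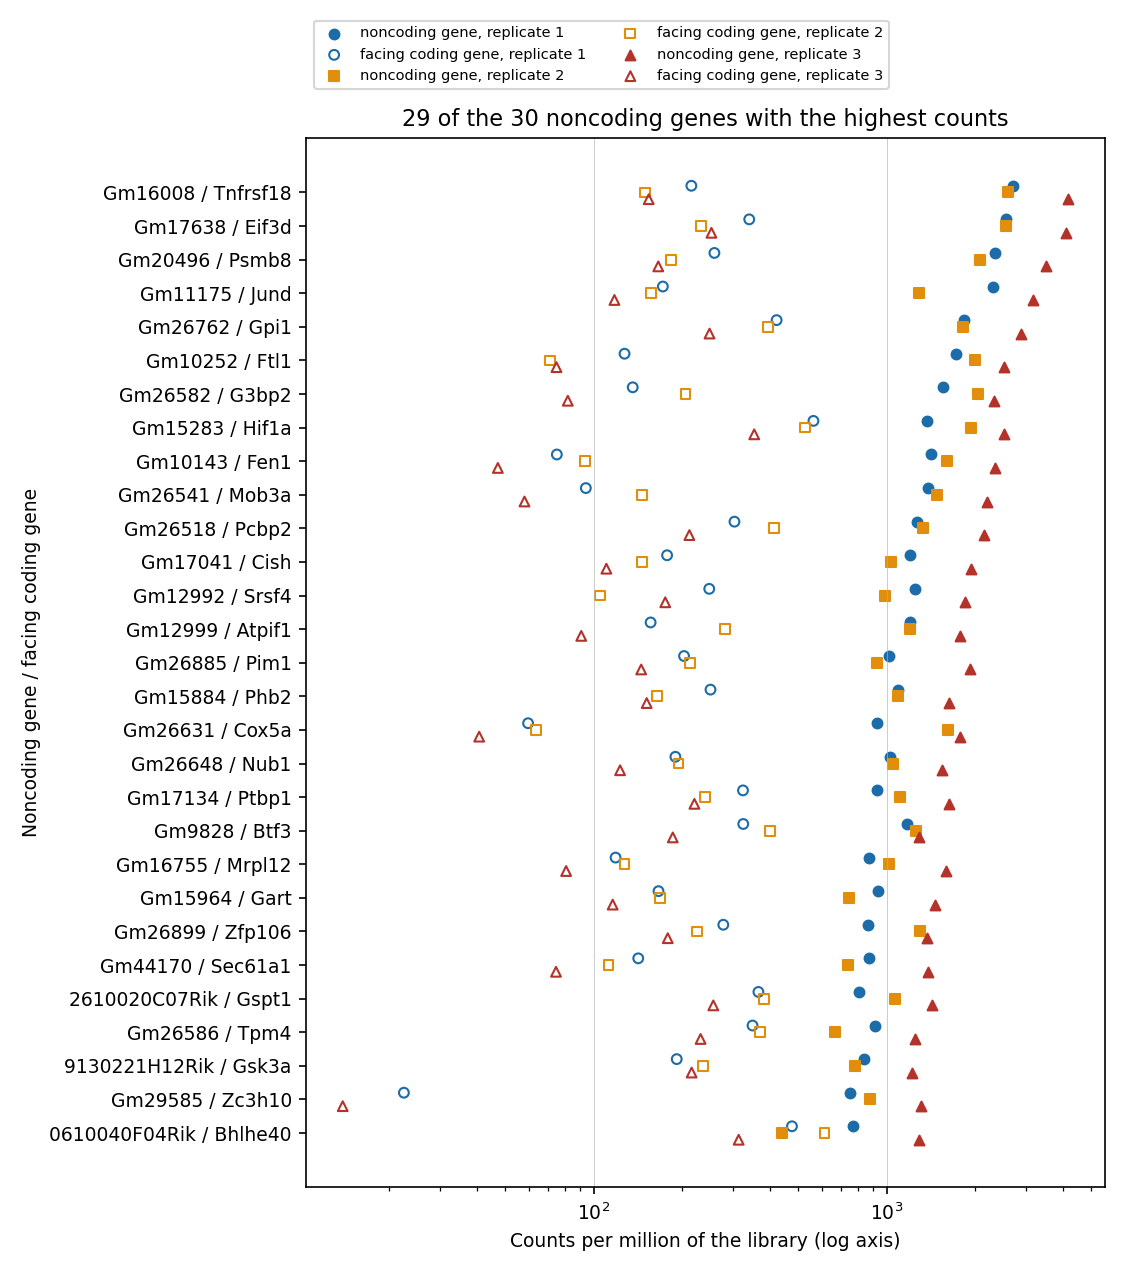
CPM (x axis, log scale) of 29 of the 30 noncoding genes with the highest summed counts (filled symbols) and of the coding gene each faces (open symbols) in replicates 1, 2 and 3. In replicates 1 and 3 each filled symbol lies to the right of its open partner, while for 0610040F04Rik the order turns in replicate 2; the 0 counts of Zc3h10 in replicate 2 cannot be drawn on a log axis.

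Over all pairs that could be tested, the noncoding gene was usually the higher one. Of the 1814, 1296 had 10 or more counts together with their facing gene and 518 did not. The noncoding gene was higher per exon base in 824 of the 1296 (63.6%) and the facing gene in 117 (9.03%), while 355 did not pass the test. Over all 1743 pairs, including those with a shorter overlap or another noncoding type, the background was 58.7% and 11.8%. The 447 other pairs alone gave 200 (44.7%) and 88 (19.7%). The fitted median log2 ratio was 2.73 for the 1296, 2.52 for all pairs and 1.29 for the 447.

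In the single libraries, the median log2 ratio of the 1296 was 2.24, 2.40 and 3.40 in replicates 1, 2 and 3, beside 2.01, 2.35 and 3.20 over all pairs. The noncoding gene was above its facing gene in 1012, 1037 and 1083 of the 1296, in every library for 919, and below it in every library for 139. The length scale matters to these counts. Facing genes have more exon bases (median 5156 against 1590), and without the length offset 472 noncoding and 235 facing genes passed as higher. The count of facing genes that passed as higher was 51 of 1233 without replicate 1 and 76 of 1219 without replicate 3. A pair that did not pass is not shown to be equal. Among 1727 simulated pairs given 1 shared spread, edgeR found 42 of 100 that differed 4-fold and 3 of 100 that differed 2-fold. Far fewer pairs differed there than passed in the data, which makes the adjustment of p-values stricter. The simulated rates therefore do not give the power of the test on the real pairs.

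**Figure D3:**
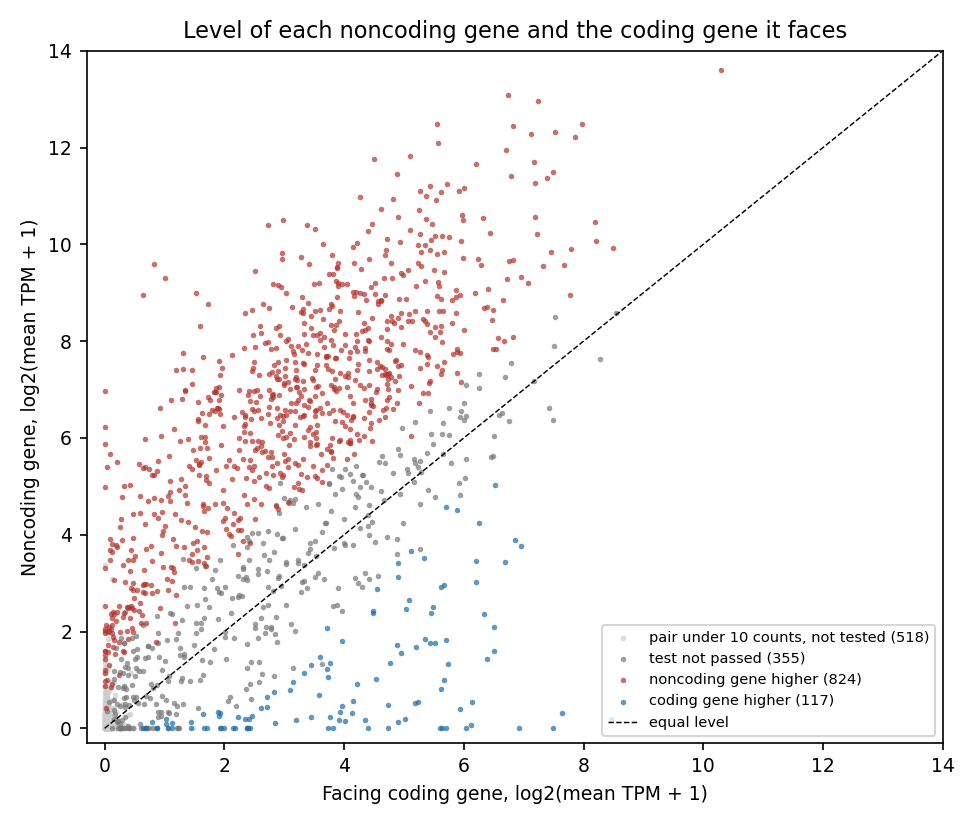
Mean level over 3 libraries of each noncoding gene (y axis) against the coding gene it faces (x axis), both as log2(TPM + 1), coloured by the result of the pair test. Points above the dashed line of equal levels are the 824 pairs with the noncoding gene higher, part of the 355 that did not pass and some of the 518 not tested. The 117 pairs with the coding gene higher lie below it.

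The level of a noncoding gene went with that of its facing gene. Across the 1296 pairs, Spearman's rho between their TPM was 0.604, 0.522 and 0.532 in replicates 1, 2 and 3. The same counts showed nearly no relation with the noncoding gene's own exon length (rho 0.029, 0.014 and 0.015) and a weak one with the number of shared bases (0.204, 0.204 and 0.199). These are descriptions across genes that share a library and its depth. Where the facing gene had fewer than 10 counts, 91 of 632 noncoding genes (14.4%) reached 10 counts. The number was 269 of 360 (74.7%) for facing genes with 10 to 99 counts, 638 of 672 (94.9%) for those with 100 to under 1000, and 136 of 150 (90.7%) for those with 1000 or more. The order of the ratios was also shared between libraries, where rho was 0.935 for replicates 1 and 3, 0.750 for replicates 1 and 2, and 0.760 for replicates 2 and 3.

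How much of a noncoding gene faces coding exons, and where, went with its ratio. The median of the log2 ratio averaged over libraries was 1.75 for genes with under 25% of their exon bases facing (n = 614), 3.11 for 25% to under 50% (n = 386), 4.03 for 50% to under 100% (n = 218) and 5.17 for the 78 that face with every base. In this last class 67 noncoding genes and 2 facing genes passed as higher. Genes that overlap the 5′ end of the facing gene had a median of 1.55 (n = 418), against 3.32 inside it (n = 517) and 3.32 over its 3′ end (n = 326). By the part of the facing gene that holds most of the shared bases, medians were 1.34 for the 5′ UTR, 3.17 for coding sequence and 3.84 for the 3′ UTR. Interquartile ranges of neighbouring classes overlap, as the plot by position shows. Those at the ends of the facing share do not, with -0.07 to 2.99 under 25% and 3.765 to 5.90 at 100%. No test was made between them, and share, position and gene type are not independent of each other. The noncoding gene's exon length also divides both its facing share and its ratio per exon base. A rise of the ratio with the share is therefore partly built in, and how much of it was not tested. Among the types, the median was 2.99 for antisense, 2.66 for lincRNA, 1.95 for TEC, 1.87 for bidirectional_promoter_lncRNA and 1.74 for processed_transcript genes.

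**Figure D4:**
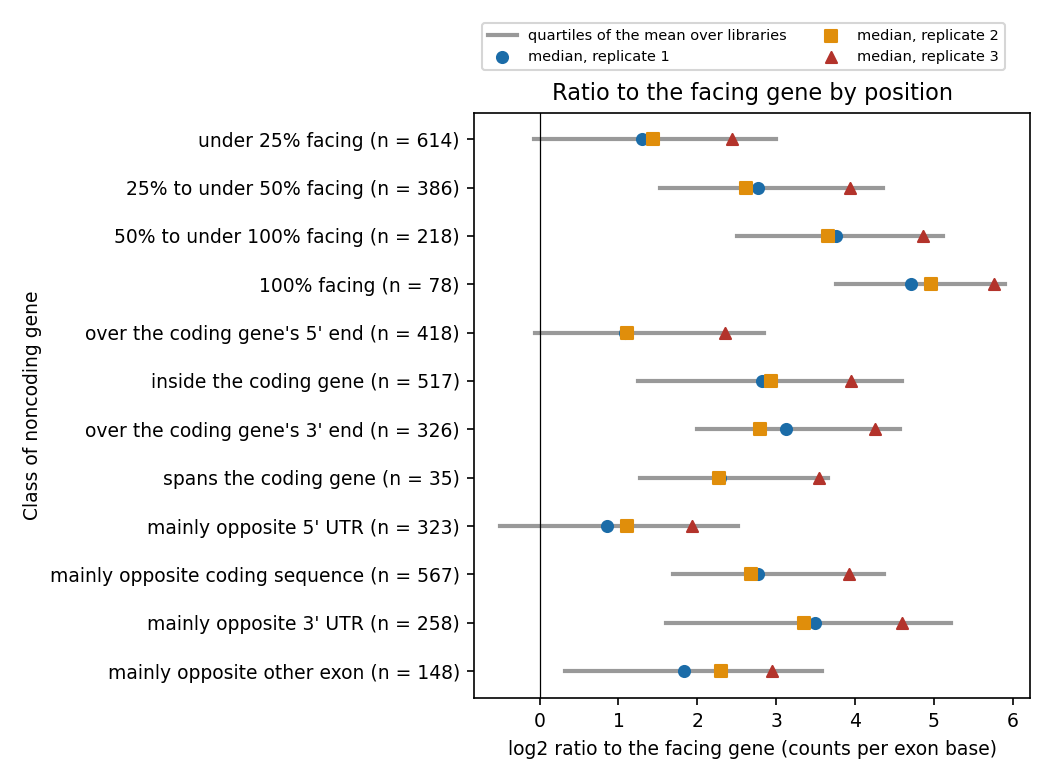
Log2 ratio of counts per exon base of the noncoding gene to the facing gene (x axis) in classes by the share of exon bases that face, by place along the coding gene and by the part of it that is mainly faced (y axis). Symbols are medians of replicates 1, 2 and 3 and grey lines run between the quartiles of the mean over libraries. Medians rise from under 25% to 100% facing, where exon length divides both the share and the ratio. Replicate 3 lies to the right in every class.

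Function lists of facing genes were made from gene symbols, and 229 of the 1814 fell in 1 of 12 lists. The lists hold 2415 of the 21764 coding genes. Of the coding genes in a list, from 2.94% (ribosomal proteins) to 15% (glycolysis, 20 genes) were faced, beside 7.85% of all coding genes. For T-cell receptor and cytokine genes it was 7.35%. Such lists can take in genes of other roles. These 229 held 29.1% of the noncoding genes' counts. Over all 1296 tested pairs, 63.6% of noncoding genes were higher and 9.03% lower, with a median log2 ratio of 2.64. Each list is to be read beside these shares, and no list was tested against them. In the list of splicing and RNA-binding genes, 15 of 23 tested noncoding genes were higher, 3 were lower and 5 did not pass. Their median log2 ratio was 2.09. For mitochondrial genes the numbers were 14 higher, 2 lower and 1 not passed, with a median of 4.10. Membrane traffic genes had 20 higher, 1 lower and 5 not passed, with a median of 3.13, and include Gm17344 opposite Ap1g1, an adaptor of clathrin coats (1947, 200 and 2762 counts against 306, 20 and 183). Ubiquitin genes had 27 higher, 6 lower and 7 not passed, with a median of 3.44. Snhg14 and Gm44560 both face the ubiquitin ligase gene Ube3a, with 1275, 133 and 1828 and 1199, 110 and 1643 counts against 418, 26 and 244. Snhg14 is the host transcript of small nucleolar RNAs that is known to silence the paternal Ube3a in neurons.

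Chromatin genes had 13 higher, 2 lower and 5 not passed, with a median of 2.44. Gm26590 faces the remodeller gene Chd8, with 930, 62 and 1492 counts against 565, 23 and 337, and Gm26625 faces Ezh2, the methyltransferase of Polycomb, with 1040, 50 and 1365 against 714, 41 and 346. Cell cycle genes had 9 higher, 2 lower and 4 not passed, with a median of 2.76. There Gm43126 faces the cyclin gene Ccnd2, with 2724, 167 and 3140 counts against 1648, 106 and 883. Genes listed as translation factors or tRNA synthetases had 5 higher, 2 lower and 3 not passed. The 5 include Gm43292 opposite Eif2ak3, a kinase of initiation factor 2, and Gm20483 opposite the tRNA synthetase gene Vars2, and Gm26637 opposite the related kinase gene Eif2ak2 is among those that did not pass. T-cell receptor and cytokine genes had 9 higher, 1 lower and 9 not passed, with a median of 1.73, and transcription factors of T cells and the interferon response had 14 higher, 2 lower and 5 not passed, with a median of 3.16. All 3 noncoding genes of the ribosomal list were higher, but Gm12977 in it faces Rps6ka1, which encodes a kinase of ribosomal protein S6 and not a ribosomal protein. Chaperones and proteasome genes were divided, with 2 higher, 2 lower and 2 not passed. There Gm10501, opposite 1778 bases of the heat shock gene Hspa1l, had 6, 0 and 8 counts against 149, 3 and 144, with an adjusted p of 5.50e-05 by edgeR for the coding gene being higher. In the glycolysis list, Gm12868 was higher than the glucose transporter gene Slc2a1 (895, 44 and 1390 against 477, 17 and 228 counts), while Hk1os was lower than hexokinase gene Hk1 (12, 0 and 11 against 1144, 43 and 536).

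Several noncoding genes with names of their own are among these. Tomm6os is named for Tomm6, a gene of mitochondrial protein import, but its facing gene by shared bases, 1221, is Prickle4. Tomm6os had 2639, 106 and 3593 counts against 15, 0 and 13 for Prickle4, and its level beside Tomm6 is not given here. Particl, opposite the S-adenosylmethionine synthesis gene Mat2a, had 1280, 90 and 2184 counts against 649, 62 and 356. Hopxos, opposite Hopx, a gene of persisting Th1 cells, had 1296, 65 and 1322 against 132, 5 and 59. Bach2os, opposite Bach2, a repressor of effector T-cell genes, had 428, 30 and 751 against 183, 13 and 130. Each of these noncoding genes was higher per exon base by the test. Gimap1os did not pass against Gimap1, a GTPase gene of lymphocytes, with 986, 78 and 1341 counts against 701, 40 and 742 (adjusted p 0.221 by edgeR).

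At the upper end of the fitted ratios, 1810008B01Rik had 215, 8 and 290 counts and its facing gene Gm20388 none, a ratio per exon base of at least 815.4-fold with 3 counts over the group as the floor. Gm26737 had 380, 14 and 444 counts and Gm49380 none, at least 361.2-fold. Both also share exon bases with a second coding gene at the same place, Galnt2 (7, 0 and 3 counts) and Rnf26 (13, 0 and 10 counts). C430014B12Rik had 457, 9 and 507 counts against 1, 0 and 1 for the collagen gene Col4a3, and it also faces Mff, a mitochondrial fission gene with 183, 2 and 124 counts. Gm28198 had 659, 38 and 968 counts against 36, 0 and 40 for the remodeller gene Srcap. Xist, also in this set, faces Gm26992, which had no counts.

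At the lower end, 5 noncoding genes had no counts while their facing genes did. Gm15628 faces Lcp1, the leukocyte actin-bundling protein L-plastin, which had 4161, 261 and 2203 counts and was at least 127.1-fold higher per exon base. Gm36995 faces Foxp3, the transcription factor of regulatory T cells, which had 515, 34 and 543 counts and was at least 522.6-fold higher. Spag17os faces Spag17, a gene of cilia, which had 780, 62 and 899 counts and was at least 301.6-fold higher. Dnah17 opposite Gm11738 had 1508, 68 and 2168 counts, and Capn12 opposite Gm44700 had 1008, 60 and 1559. Each of these 5 coding genes has another gene opposite its exons. For Lcp1 it is Gm15629 by 219 bases, with 2182, 174 and 3540 counts. The others are coding genes. Foxp3 has Ccdc22 by 590 bases (6, 0 and 3 counts) and Spag17 has Wdr3 by 820 (426, 12 and 231). Dnah17 has Pgs1 by 93 (378, 22 and 231) and Capn12 has Actn4 by 316 (1184, 88 and 661). Over all pairs with the facing gene higher, 35 of 117 facing genes (29.9%) also lay opposite another coding gene by 100 bases or more. With the noncoding gene higher it was 48 of 824 (5.83%), and with no call 40 of 355 (11.3%). The part of those further overlaps in the counts was not tested.

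Replicate 3 carried more of the noncoding genes than replicate 1. Among the 1134 with 10 or more counts, CPM was higher in replicate 3 for 1076, against 4406 of 13619 over all genes. The median log2 difference of the 1134 was 0.76. At least a 2-fold rise was seen in 257 (22.7%), against a background of 7.54% over all genes, and a fall of that size in 10 (0.882%), against 5.87%. The median of the facing genes was -0.41 with library totals, but -0.02 under TMM scaling and 0.11 with totals of genes that have no opposite exon, so its direction depends on the scaling. Coding genes with no opposite exon had -0.54, -0.14 and -0.01 under the same 3 scalings. Genes of the same 5 types with no opposite exon had a median of 0.60 with library totals. Of 457 such genes with 10 or more counts, 312 were higher in replicate 3. At least a 2-fold rise was seen in 148 (32.4%), and 32 fell by that much. The 2-fold rise was thus not particular to noncoding genes that face coding exons. Over all genes the median was -0.39 with library totals, and TMM scaling, which sets the bulk of genes near 0, moved it to 0.01. The median of the noncoding genes lay 1.15 above that of all genes on the log2 scale, and that of the facing genes at -0.03 from it. A scaling factor moves all genes alike, so these distances do not depend on it. The number past 2-fold depends on this choice: it was 793 under TMM scaling.

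Between replicates 2 and 1 the median of the noncoding genes was 0.01, and between 3 and 2 it was 0.72. No test applies to single libraries of 1 group, and in bulk RNA fewer cells of a type and less RNA per cell cannot be told apart. All 30 of the highest noncoding genes had a higher CPM in replicate 3 than in replicate 1, while the CPM of the facing gene was lower in 29 pairs, the exception being Gsk3a opposite 9130221H12Rik. Under TMM scaling these were again 30 and 29, and with totals of genes that have no opposite exon 30 and 22. Gm16008, for example, went from 12067 counts of 4482916 to 15599 of 3733531, and Tnfrsf18 from 967 to 576. The ratio of the noncoding to the facing gene was higher in replicate 3 than in replicate 1 for 1129 of the 1296 pairs. Over all 1743 pairs, these included, the median log2 ratio was also higher, 3.20 in replicate 3 against 2.01 in replicate 1.

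**Figure D5:**
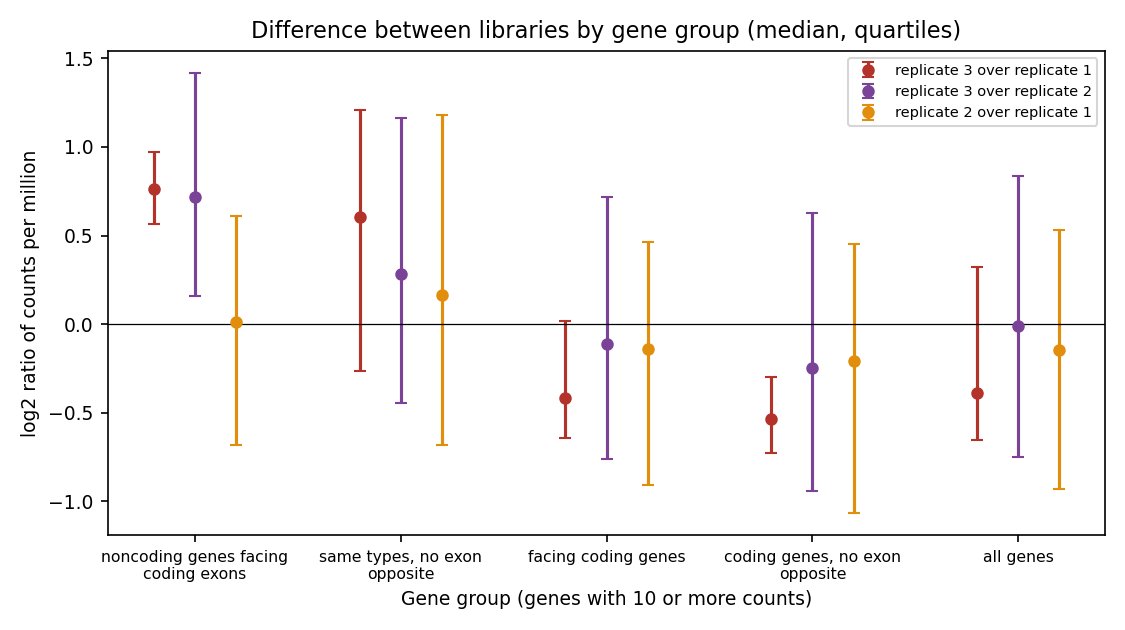
Median log2 ratio of CPM between libraries (y axis), with lines to the quartiles over genes, for 5 groups of genes with 10 or more counts (x axis). For replicate 3 over replicate 1 the noncoding genes facing coding exons lie at 0.76 and their facing genes at -0.41, with library totals; the facing genes' median turns to 0.11 with totals of genes that have no opposite exon.

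Those that differed most between replicates 3 and 1, among those with 100 or more counts, included X-linked genes at both ends. The 3 highest ratios belonged to Gm15247 (14, 6 and 465 counts), Gm15726 (87, 53 and 1264) and G530011O06Rik (31, 4 and 184). All 3 face Mid1, a ubiquitin ligase gene with 16, 7 and 67 counts, which spans the boundary of the pseudoautosomal region in mice. Next were Gm26810 opposite Capns1 (45, 4 and 137) and Gm10575 opposite Cracr2b (25, 5 and 72). The lowest ratio belonged to Xist, the RNA that silences an X chromosome in female cells, with 1174, 140 and 11 counts. Cct6a (1922, 144 and 1102), Gm26527 (83, 5 and 51), Gm48226 (65, 0 and 45) and Gm4876 (1110, 23 and 816) followed. Cct6a, which lies opposite Psph, is typed processed_transcript in the release used here although its symbol is that of a chaperonin subunit gene.

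Around the minimum of 100 shared bases, 1700120C14Rik shares exactly 100 bases with Mcrs1 and had 230, 22 and 440 counts. Gm45352 opposite Sorcs1 had 2, 0 and 0, and Gm13713 opposite Lrrc55 had none. Just outside, with 99 shared bases, 1700001G11Rik opposite Trim35 had 112, 0 and 184 counts, 2810430I11Rik opposite Col5a1 had 0, 0 and 1, and Pcsk2os2 opposite Pcsk2 had none.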

How the data were processed

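Paired-end RNA sequencing of 3 Th1 libraries was analysed. Per the file headers and labels, the deposited values are raw counts of fragments per gene, made with featureCounts 1.4.6-p4 on mm10 exons of GENCODE release 13, with both ends mapped and strand setting 1. The alignment file names point to STAR, with no version given. Names and types came from GENCODE release 21 on the same assembly, matched by identifier (50376 of 50600 genes, 224 unmatched). Exons of a gene were merged before shared bases were counted.

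TPM used the deposited exon lengths. Pairs were tested with edgeR 4.0.16 (quasi-likelihood, library as block, offsets for library total and exon length, at least 10 counts per pair, adjusted p under 0.05), in R 4.3.3. Per-library log2 ratios used a prior of 0.5 counts. Alternatives used DESeq2 1.42.0, limma 3.58.1 on log2(TPM + 1), other length, scaling, overlap and count settings, and left out each replicate. In simulated data of 1727 pairs, 0 unchanged pairs were called. Floors are 3 counts over the group.

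The members and lists were chosen with earlier results of these data known. Named genes are the 30 with the highest summed counts, the 5 highest per function list, the extremes of the fitted ratio (5 each way) and of replicate 3 to replicate 1 (5 each way, at least 100 counts), and 3 on each side of the overlap minimum. Genes named in the paragraph on own names, the 4 Y-chromosome genes and Tsix were chosen after their values were seen. Some pairs that this rule names are not reported here.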

Additional observations from a re-analysis of the deposited data

How the results depend on the processing

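Depth limits replicate 2 most. Fragments were assigned to genes by strand, but the strand that the library chemistry keeps is unknown. The counts alone therefore cannot show whether a fragment came from the noncoding or the facing gene. The median log2 difference of facing genes between replicates 3 and 1 turned from -0.41 to 0.11 with totals of genes that have no opposite exon. The share held by the noncoding genes was 30.1% in TPM. Noncoding genes higher than the facing gene numbered 824 of 1296 in the main setting and 472 of 1296 without the length offset. Where neither gene has a second gene opposite, they numbered 528 of 807, so fewer pairs were tested there. With 1 replicate left out, they ran from 604 of 1219 to 784 of 1294. DESeq2 gave 769 and limma 781, each of 1296. Facing genes higher numbered 117 of 1296 in the main setting and 235 of 1296 without the length offset. They were 75 of 958 with 200 shared bases and 54 of 807 with no second gene opposite. With 1 replicate left out, they ran from 51 of 1233 to 105 of 1294. Choosing the facing gene by counts, an alternative added after seeing the data, gave 805 and 122 of 1284. The median log2 ratio without length scaling was 0.81. The 257 genes 2-fold higher in replicate 3 than in replicate 1 became 793 under TMM, 675 under DESeq2 size factors, 930 under totals of genes with no opposite exon, 387 with no filter and 154 with at least 100 counts. It was 443 for replicate 3 over replicate 2 and 160 for replicate 2 over replicate 1. The cause of these shifts was not tested, apart from smaller or larger sets of genes where a filter changed. In all, 16 alternatives to summary results moved beyond 1.5 times a count or 1 SD of a value, and 43 did not. There is 1 group, so replicate numbers pair no samples across groups, and the pair test has the library as its block.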

Other observations

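Genes of the sex chromosomes were looked at after the values of Xist were seen. Tsix, the antisense gene of Xist, shares exon bases with it and had 1293, 263 and 9 counts in replicates 1, 2 and 3, so both strands of this locus were low in replicate 3. Of the Y chromosome, Eif2s3y had 124, 0 and 146 counts, Ddx3y 112, 0 and 94, Kdm5d 52, 0 and 54, and Uty 49, 0 and 45. Replicate 1 thus held counts of Xist and of the Y genes, replicate 2 of Xist alone and replicate 3 mostly of the Y genes, although the labels tie all 3 libraries to 1 donor record. Replicate 2 is shallow, and its 0 counts for Eif2s3y allow up to 11.2 CPM, below the 27.7 and 39.1 CPM of this gene in replicates 1 and 3.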
